A study of Mus musculus with 6 samples.

Results

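The genes of the proteasome were examined in RNA-seq libraries of activated cardiac fibroblasts. They were taken from the deposited table by symbol, as every row whose symbol opens with *Psma*, *Psmb*, *Psmc*, *Psmd*, *Psme*, *Psmf* or *Psmg* followed by a number, without rows classed as pseudogenes or marked "-ps". The rule matched 52 rows, 4 of which were left out, so that 48 of 28987 genes remained. The rule itself uses no expression value, though the genes were chosen with earlier results of these data known. Of the 48, 1 is not part of the proteasome. *Psmc3ip* encodes a protein of meiotic recombination, which the symbol rule matched though it is not a subunit. Its values are described on their own, but it is kept in all counts and medians of the matched genes. This holds also where these are called proteasome genes. *Psmb9*, an inducible catalytic subunit, was not analysed here.

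The proteasome degrades proteins that carry ubiquitin. Its core particle is a stack of α rings and β rings, with the proteolytic sites on 3 of the β subunits, and a regulatory particle, made of a base with 6 ATPases and a lid, binds ubiquitin chains, unfolds the substrate and feeds it into the core. Interferon replaces the catalytic β subunits with inducible ones and adds an activator cap, which alters the peptides available for class I antigen presentation. When proteasome activity is insufficient, the transcription factor encoded by *Nfe2l1* is known to raise the transcription of most standing subunits together.

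EGFP+ cells for the libraries were flow-sorted from mouse ventricles 4 weeks after transverse aortic constriction (TAC). This operation narrows the aorta and loads the left ventricle with pressure, and the mice underwent it at 8 to 10 weeks of age. All 6 carry a tamoxifen-activated Cre recombinase (MerCreMer) in the *Postn* locus and a Cre-dependent eGFP reporter in the *Rosa* locus, and all mice received tamoxifen, for which the labels name 100 mg/kg when injected and 40 mg/kg when fed. The 3 libraries labelled Hsp47-deleted come from mice that also carry *Hsp47* flox/flox alleles, and the labels list no flox allele for the 3 controls. Because Cre is driven by *Postn*, both the reporter and the deletion are limited to cells that have switched on *Postn*.

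Control replicates 3 and 4 were sequenced in a run here called the first run, whereas control replicate 2 and all 3 libraries labelled Hsp47-deleted came from another, the second run. Values of the controls are always given in the order of replicates 3, 4 and 2, and those of the other group in the order of replicates 1, 2 and 3. They are log2(value + 1) as deposited, and the linear unit is not named. The sums of the linear values ranged from 690499 to 855404 per library and are not read counts, so that the depth is unknown. *Serpinh1*, which encodes Hsp47, stood at 6.28, 6.10 and 7.60 in the controls and at 6.87, 6.67 and 6.66 in the libraries labelled Hsp47-deleted (log2 difference 0.072, limma, Benjamini-Hochberg (BH) adjusted p = 0.947). The targeted transcript was therefore not lower over all libraries, while the mean of the libraries labelled Hsp47-deleted minus control replicate 2, the 1 control of the second run, was -0.87. These are RNA values of the whole gene. For protein, the paper reports efficient loss of Hsp47 by Western blot of sorted EGFP+ myofibroblasts from this cross. Protein was not measured here. "Hsp47-deleted" below is the label only, in every direction that is given. The fibroblast markers (8 of 8 in the table) summed to between 7953 and 10924 linear units in controls and between 12542 and 14297 in the libraries labelled Hsp47-deleted. Leukocyte markers (7 of 8 in the table) summed to between 37.5 and 89.0 and between 96.3 and 123, with the pan-leukocyte marker *Ptprc* listed at 0 in all 6 libraries. The sums ran from 37.1 to 223 in controls and from 152 to 238 in the other group for cardiomyocyte markers, from 85.9 to 209 and from 141 to 204 for endothelial ones, from 160 to 285 and from 108 to 166 for mural ones, and from 13.3 to 342 and from 81.1 to 136 for erythroid ones. The part of these markers in the results below was not tested. In bulk libraries, fewer cells of a type and less RNA per cell cannot be told apart.

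Most proteasome genes had somewhat higher values in the libraries labelled Hsp47-deleted, as did most genes of the table, and none passed the adjusted test. A gene was tested where its mean over the 6 libraries was at least 1 in the linear unit, which kept 47 of the 48 genes and 15109 genes in all. At a BH-adjusted limma p under 0.05, 0 of the 47 differed between the groups, against 0.245% of all genes tested. At an unadjusted p under 0.05, 9 were higher and 0 lower, which is 19.1% against 14.5% of all genes for the higher direction and 0 against 0.755% for the lower. The 9 were *Psma5*, *Psmb2*, *Psmb3*, *Psmb5*, *Psmb6*, *Psmc4*, *Psmd5*, *Psmg4* and *Psmc3ip*. This balance depended on the scaling. With each library centred on its median 2 were higher, *Psmb6* and *Psmc3ip*, and 1 lower, *Psme1*, and with quantile normalization 1 was higher, *Psmc3ip*, and 4 lower, *Psma3*, *Psma7*, *Psmb4* and *Psme1*, all at an unadjusted limma p under 0.05. The median log2 difference was 0.40 over the 47 genes and 0.355 over all genes, and 39 of the 47 (83.0%) lay above 0, as did 74.5% of all genes. After centring the median over the 47 was -0.014. All 3 libraries labelled Hsp47-deleted stood above all 3 controls for 11 of the 47, or 23.4% against 18.3% of all genes, and below them for 0 against 1.50%.

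The sequencing run moved with the labels and separated more proteasome genes than the labels did, as it also did over all genes. The run splits the libraries 4 against 2 and the labels 3 against 3, so these counts are not like for like. The libraries of the second run all lay above both libraries of the first run for 21 of the 47 genes (44.7%, against 35.0% of all genes) and below them for 5 (10.6%, against 9.92%). In a limma fit with run as a covariate, the run term passed a BH-adjusted p under 0.05 for 3 of the 47, *Psmb8*, *Psmb10* and *Psmg4*, or 6.38% against 3.94% of all genes. In the same fit the label passed for 0 of the 47 (0.331% of all genes), and at an unadjusted p under 0.05 it gave 1 gene higher, *Psmc3ip* (5.46% of all genes), and 1 lower, *Psmb8* (1.27%). Only control replicate 2 carries the comparison within the second run, and differences from that 1 control are given below as values. The label term of the fit with run as a covariate is the same difference, so that its p rests on 1 control, with the spread taken from the other libraries. Against control replicate 2 the median difference was 0.34 over the 47 genes and 0.29 over all genes. All 3 libraries labelled Hsp47-deleted stood above that control for 26 of the 47 (55.3%, against 46.7% of all genes) and below it for 5 (10.6%, against 11.7%).

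**Figure D1:**
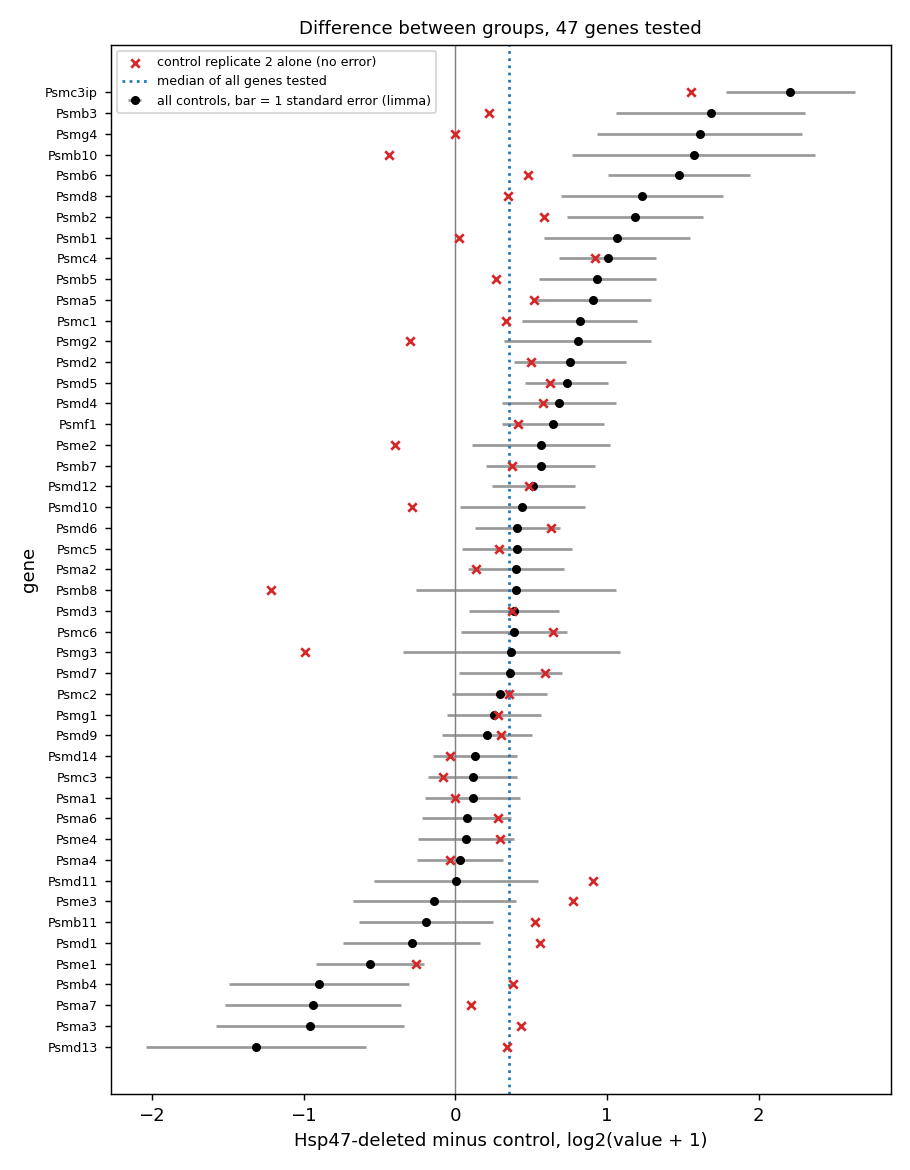
Log2 difference between the libraries labelled Hsp47-deleted and the controls for the 47 genes tested, in order of size. Black points are the difference of the 3-library means with 1 standard error from limma, red crosses the difference from control replicate 2 alone, and the dotted line is the median of all genes tested (0.355). Crosses lie far to the left of the points for *Psmb8*, *Psmb10*, *Psmg3* and *Psmg4*, and to the right for *Psmd13*, *Psma3* and *Psmb4*.

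The catalytic subunits of the standing β ring were higher in the second run as a whole. *Psmb6* encodes the subunit with caspase-like activity. It stood at 5.12, 4.98 and 6.54 in the controls and at 6.91, 6.70 and 7.44 in the libraries labelled Hsp47-deleted. The groups did not overlap, and control replicate 2 lay within 0.48 of the mean of the libraries labelled Hsp47-deleted but more than 1 unit above the other controls (log2 difference between the groups 1.47, standard error 0.47, limma, BH-adjusted p = 0.282). For *Psmb5*, which has chymotrypsin-like activity, the controls stood at 5.00, 4.84 and 5.92 and the libraries labelled Hsp47-deleted at 6.27, 5.74 and 6.55. These overlap, with a group difference of 0.94 (limma, BH-adjusted p = 0.321) and a difference of 0.27 from control replicate 2. The subunit with trypsin-like activity, *Psmb7*, was at 5.63, 5.45 and 5.82 in controls and 6.03, 5.70 and 6.86 in the others, and these also overlap.

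The structural β subunits split between genes that were higher and genes that were lower in the second run. *Psmb3* stood at 3.23, 3.96 and 5.79 in controls and at 5.81, 5.77 and 6.44 in the libraries labelled Hsp47-deleted, so that the group difference of 1.68 (standard error 0.62, limma, BH-adjusted p = 0.304) came down to 0.22 against control replicate 2. *Psmb4* ran the other way, with 8.12, 9.21 and 6.75 in controls and 7.05, 6.80 and 7.53 in the others. Its group difference was -0.90 and its difference from control replicate 2 was 0.38, so that the sign depended on which controls were used. For *Psmb2*, whose groups did not overlap, the values were 5.56, 6.10 and 6.73 against 7.07, 6.79 and 8.08, a difference of 1.18 (limma, BH-adjusted p = 0.306) and 0.59 against control replicate 2. Over the 7 standing β subunits the group difference ranged from -0.90 to 1.68 with a median of 1.07, and the difference from control replicate 2 ranged only from 0.025 to 0.59, above 0 for all 7 as deposited, with *Psmb1* and *Psmb3* below 0 after centring.

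The α ring, whose subunits form the gate of the core, showed no such shift of its median. Its 7 tested genes had a median group difference of 0.074, and 5 lay above 0, or 1, *Psma5*, after centring. *Psma5* was the only one with an unadjusted p under 0.05 (limma), with 4.82, 5.16 and 5.57 in controls and 5.77, 5.72 and 6.78 in the libraries labelled Hsp47-deleted (difference 0.91, limma, BH-adjusted p = 0.324). *Psma3* and *Psma7* were high in the first run. *Psma3* stood at 8.46, 8.88 and 6.59 in controls and 6.67, 6.68 and 7.71 in the others, and *Psma7* at 7.37, 9.09 and 6.66 and at 6.75, 6.66 and 6.89. Their group differences of -0.96 and -0.94 became 0.43 and 0.11 against control replicate 2.

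For *Psma3* a near-identical copy moved the opposite way. The processed pseudogene *Gm13835*, whose transcript is close enough to *Psma3* for reads to be split between them, was at 1.05 and 2.36 in control replicates 3 and 4, 6.18 in control replicate 2, and 6.37, 5.83 and 6.60 in the libraries labelled Hsp47-deleted. With the linear values of *Psma3* and its copies added, the log2 values were 8.47, 8.90 and 7.39 in controls and 7.52, 7.31 and 8.25 in the others, and the group difference was -0.56 in place of -0.96. The value of *Psma3* is uncertain by this much. For *Psme2*, adding its copy *Psme2b-ps* gave a group difference of 0.61 in place of 0.57. In all, 10 of the 48 genes have an annotated near-identical copy.

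**Figure D2:**
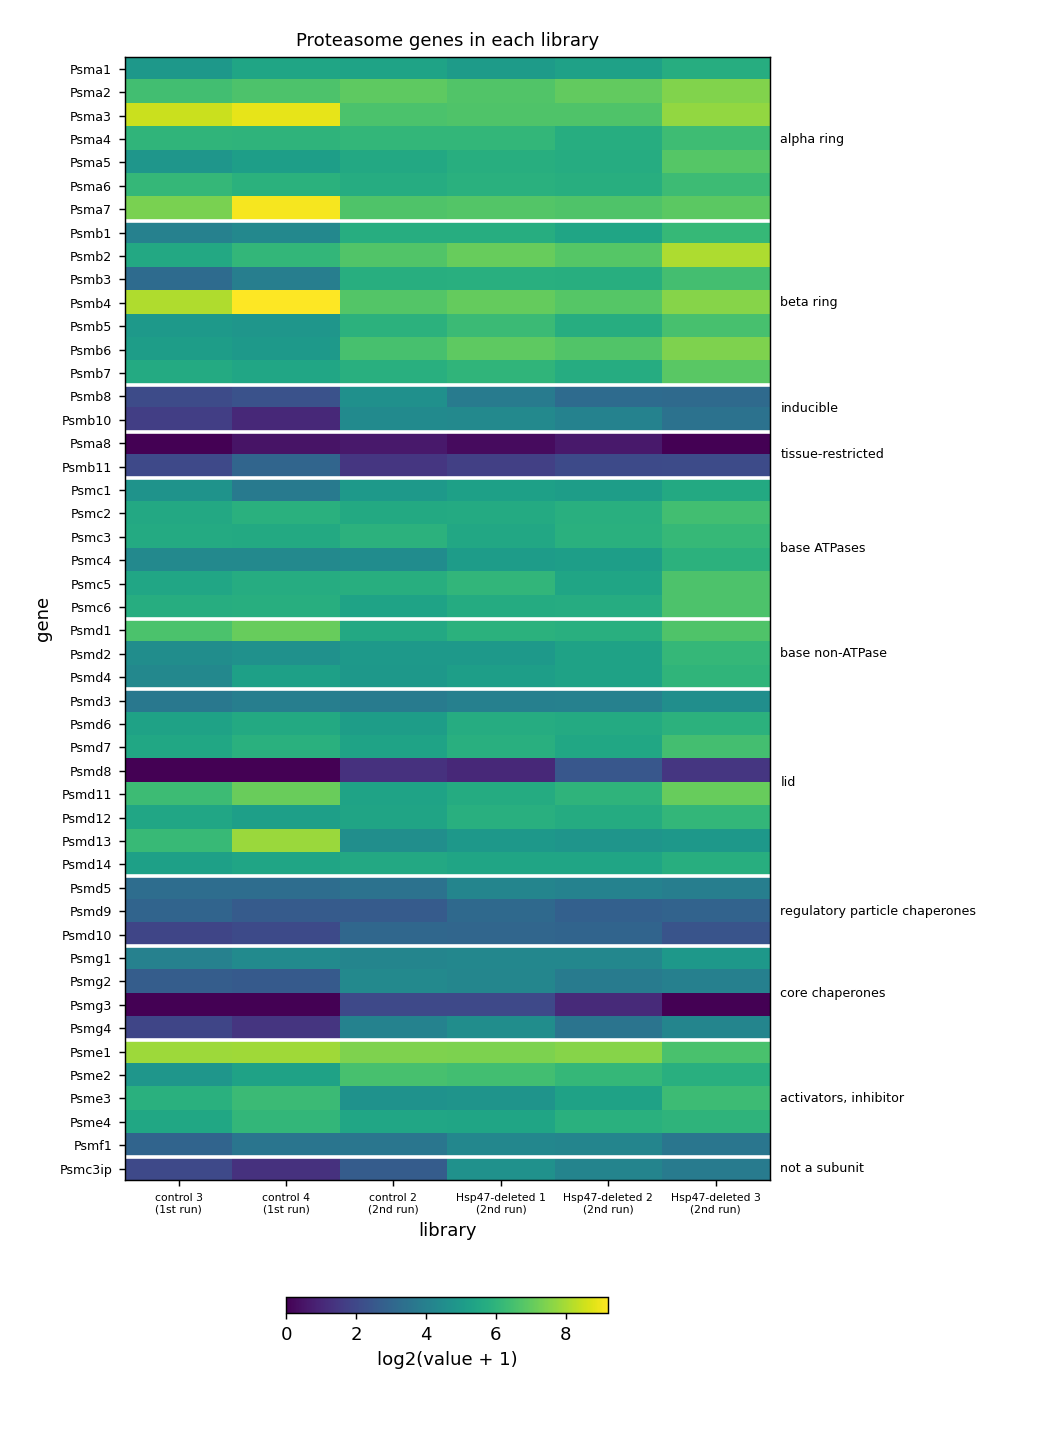
Log2(value + 1) of the 48 genes (rows, grouped by role) in the 6 libraries (columns, with their sequencing run), as a colour scale from 0. *Psma3*, *Psma7*, *Psmb4* and *Psmd13* are brightest in control replicates 3 and 4, *Psmb8*, *Psmb10* and *Psmg4* are darkest there, and many α, β and ATPase rows are brightest in Hsp47-deleted replicate 3.

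Among the ATPases of the base, *Psmc4* had the smallest p. It was at 4.34, 4.35 and 4.48 in controls and at 5.09, 5.18 and 5.91 in the libraries labelled Hsp47-deleted. The 3 controls lay close together across both runs and none overlapped the other group, with a log2 difference of 1.00 (standard error 0.32, limma, BH-adjusted p = 0.282). Against control replicate 2 it was 0.92. In the fit with run as a covariate its unadjusted limma p was 0.065. Its value was highest in Hsp47-deleted replicate 3, and without that library the difference was 0.75. *Psmc1* also had groups that did not overlap, with 4.72, 3.79 and 4.99 against 5.25, 5.12 and 5.59 (difference 0.82, limma, BH-adjusted p = 0.344). All 6 ATPases had a group difference above 0, from 0.12 to 1.00, and 2 of them, *Psmc1* and *Psmc4*, after centring.

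The non-ATPase subunits of the base are the scaffolds *Psmd1* and *Psmd2* and the ubiquitin receptor *Psmd4*, and their differences from control replicate 2 lay between 0.50 and 0.58. Without Hsp47-deleted replicate 3 these were 0.28 for *Psmd1*, 0.17 for *Psmd2* and 0.32 for *Psmd4*. *Psmd1* was at 6.60, 7.07 and 5.57 in controls and at 5.90, 5.80 and 6.68 in the others. Its group difference was -0.29, so that its sign depended on the controls used. *Psmd2* was at 4.53, 4.67 and 4.98 in controls and at 4.98, 5.32 and 6.15 in the libraries labelled Hsp47-deleted, and *Psmd4* at 4.29, 5.24 and 4.92 and at 5.18, 5.30 and 6.02. In both genes Hsp47-deleted replicate 3 was highest and the groups overlapped. Of the 8 lid genes, 7 had a group difference above 0, and 2 after centring, *Psmd8* and *Psmd12*. The lid genes *Psmd3*, *Psmd6* and *Psmd12* had groups that did not overlap. *Psmd12* stood at 5.47, 5.20 and 5.38 in controls and at 5.83, 5.67 and 6.09 in the others, a difference of 0.51 (limma, BH-adjusted p = 0.391). The lid's deubiquitinating enzyme, *Psmd14*, differed by 0.13.

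*Psmd13* and *Psmd8* are the lid genes that stood furthest apart between the runs. *Psmd13* was at 6.23 and 7.81 in control replicates 3 and 4 and between 4.54 and 4.93 in all 4 libraries of the second run. Its group difference was -1.31 (standard error 0.72, limma, BH-adjusted p = 0.401). Within the second run it was 0.34. *Psmd8* is listed at 0 in control replicates 3 and 4, at 1.32 in control replicate 2 and at 1.06, 2.49 and 1.47 in the libraries labelled Hsp47-deleted. No fold is given for it, since a listed 0 in a file without counts may be a failed estimate, and it is among the 3 of the 47 genes with the lowest mean value.

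Of the chaperones that assemble the regulatory particle, *Psmd5* had 3 controls that lay close together, at 3.30, 3.29 and 3.46, below 4.21, 4.10 and 3.95 in the libraries labelled Hsp47-deleted. The difference was 0.73 (standard error 0.27, limma, BH-adjusted p = 0.306). Within the second run it was 0.62. *Psmd10* overlapped, and its sign depended on the controls used, with a group difference of 0.44 and -0.29 against control replicate 2. Of the core assembly chaperones, *Psmg2* and *Psmg4* were higher in every library of the second run than in the first. *Psmg4* was at 1.93 and 1.40 in control replicates 3 and 4, at 4.08 in control replicate 2 and at 4.50, 3.55 and 4.20 in the others, with a group difference of 1.61 (limma, BH-adjusted p = 0.323) and -0.0009 against control replicate 2. *Psmg2* was at 2.73, 2.62 and 4.33 in controls and at 4.24, 3.83 and 4.03 in the others, below control replicate 2 in all 3. *Psmg1* overlapped between the runs, with 4.07, 4.40 and 4.19 against 4.26, 4.26 and 4.90. *Psmg3* is listed at 0 in control replicates 3 and 4 and in Hsp47-deleted replicate 3, and stood at 2.04 in control replicate 2 and at 2.04 and 1.10 in Hsp47-deleted replicates 1 and 2.

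The inducible catalytic subunits were low in the first run and, within the second run, highest in the control. *Psmb8* takes the place of *Psmb5* in the immunoproteasome. It stood at 2.10 and 2.31 in the controls of the first run, at 4.63 in the control of the second, and at 3.83, 3.21 and 3.20 in the libraries labelled Hsp47-deleted. The group difference of 0.40 (standard error 0.66, limma, BH-adjusted p = 0.783) thus stood beside a difference of -1.22 from the control of the same run, and with run as a covariate the unadjusted limma p was 0.021. *Psmb10*, which takes the place of *Psmb7*, was at 1.70, 1.07 and 4.39 in controls and at 4.33, 4.09 and 3.46 in the others, a group difference of 1.57 (standard error 0.80, limma, BH-adjusted p = 0.379). Within the second run it was -0.44. In both genes all 3 libraries labelled Hsp47-deleted lay below control replicate 2 and above control replicates 3 and 4.

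The ratio of an inducible subunit to the standing one it replaces was compared for 2 pairs. For *Psmb8* minus *Psmb5* the log2 ratio was -2.89, -2.53 and -1.28 in controls and -2.44, -2.53 and -3.35 in the libraries labelled Hsp47-deleted. The mean ratio differed by -0.54 (two-sided exact permutation p = 0.5, BH-adjusted p = 0.5 over 2 pairs), and by -1.49 from control replicate 2. For *Psmb10* minus *Psmb7* the ratios were -3.93, -4.38 and -1.43 against -1.70, -1.61 and -3.40, a difference of 1.01 (two-sided exact permutation p = 0.4, BH-adjusted p = 0.5) that became -0.81 against control replicate 2. With 3 libraries against 3 such a test cannot give a p under 0.10.

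The activator caps did not share one pattern. *Psme1* and *Psme2* encode the interferon-inducible cap, yet *Psme2* was higher in the second run, with 4.83 and 5.32 in control replicates 3 and 4, 6.52 in control replicate 2 and 6.42, 6.12 and 5.82 in the others, whereas *Psme1* was lower there, with 7.85 and 7.90, then 7.42, then 7.39, 7.53 and 6.56. In both, Hsp47-deleted replicate 3 was the lowest library of the second run. *Psmf1*, an inhibitor of the core, was at 2.98, 3.57 and 3.62 in controls and at 4.28, 4.20 and 3.63 in the others, so that the groups were separated by less than 0.05 (difference 0.64, limma, BH-adjusted p = 0.388). The nuclear cap *Psme3* and the alternative cap *Psme4* had group differences of -0.14 and 0.071.

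**Figure D3:**
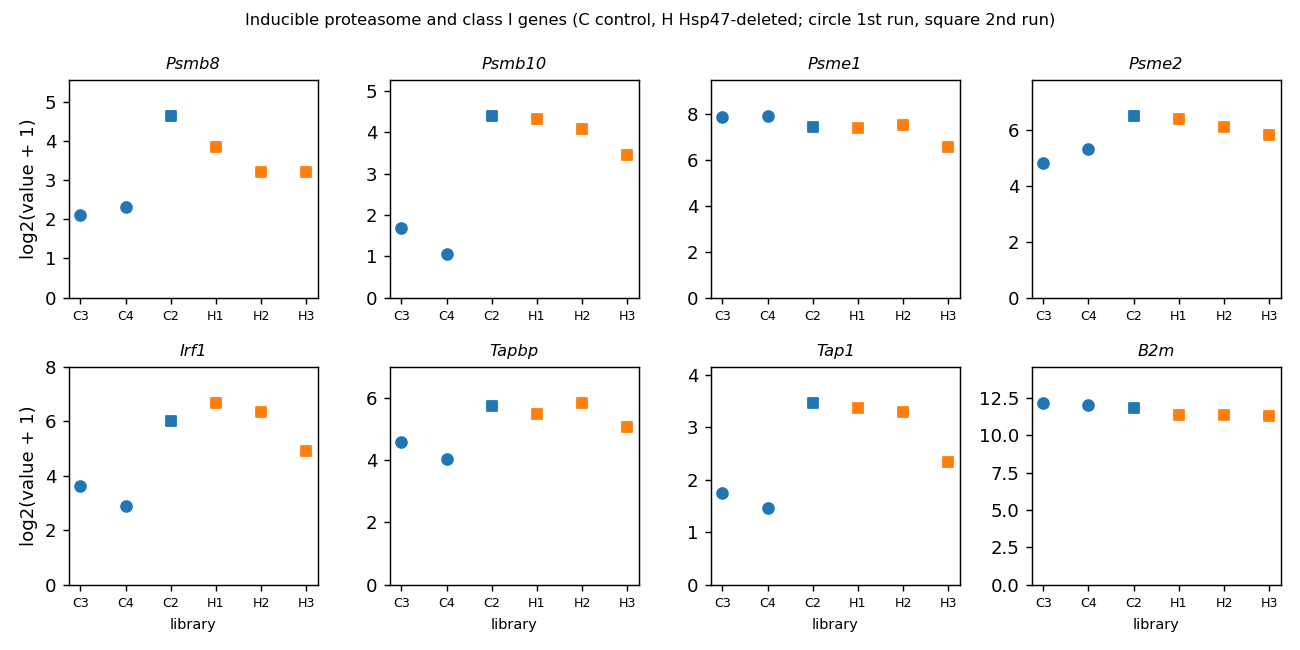
Log2(value + 1) of 4 interferon-inducible proteasome genes (upper row) and 4 genes of class I antigen presentation and its control (lower row) in each library. Blue is control (C), orange is labelled Hsp47-deleted (H), circles are the first run and squares the second. *Psmb8*, *Psmb10*, *Psme2*, *Irf1*, *Tapbp* and *Tap1* were lower in both libraries of the first run than in any of the second, while *Psme1* and *B2m* were higher there.

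Of the tissue-restricted subunits, 1 was not tested and 1 overlapped between the groups. *Psma8*, a subunit of the testis, was listed at 0 in control replicate 3 and Hsp47-deleted replicate 3 and at no more than 0.65 elsewhere, and it is the 1 gene of the 48 that was not tested. *Psmb11*, a catalytic subunit of thymic epithelium, was at 2.05, 2.99 and 1.44 in controls and at 1.73, 2.07 and 2.10 in the others. Mean linear values of the tested genes over the 6 libraries ran from 1.23 for *Psmg3* to 221.4 for *Psma3* and 233.6 for *Psmb4*. No order of levels between genes is drawn from them, since the file does not say whether its unit is per length.

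*Psmc3ip*, the recombination factor, had the smallest p of the 47 genes. It was at 2.05, 1.33 and 2.68 in controls and at 4.66, 4.17 and 3.85 in the libraries labelled Hsp47-deleted. The groups were more than 1 unit apart, with a difference of 2.21 (standard error 0.43, limma, BH-adjusted p = 0.126). Within the second run it was 1.55. In the limma fit with run as a covariate its unadjusted p was 0.014.

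*Psmb5*, *Psmb6*, *Psmc4* and *Psmc3ip* were all higher in every library of the second run than in the first. In *Psmb6*, *Psmc4* and *Psmc3ip* the groups did not overlap, and all 3 libraries labelled Hsp47-deleted also stood above control replicate 2. In *Psmb5* the groups overlapped. The proximal promoters of these 4 genes are shown. Each is the stretch of 100 bases before the RefSeq start site (GRCm38.p6), 5′ to 3′ on the strand of the gene, and positions are counted back from the start site, with -1 the base next to it. Capitals mark TGACNNNGC, the core of the antioxidant response element that Nfe2l1 and Nfe2l2 can bind, and CCAAT, the box bound by NF-Y.
Psmb5: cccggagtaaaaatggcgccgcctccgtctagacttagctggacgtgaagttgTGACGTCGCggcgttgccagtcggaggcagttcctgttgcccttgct
Psmb6: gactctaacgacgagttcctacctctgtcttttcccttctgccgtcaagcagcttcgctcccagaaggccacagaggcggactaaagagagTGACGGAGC
Psmc4: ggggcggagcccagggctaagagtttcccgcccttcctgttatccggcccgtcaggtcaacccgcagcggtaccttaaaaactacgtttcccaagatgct
Psmc3ip: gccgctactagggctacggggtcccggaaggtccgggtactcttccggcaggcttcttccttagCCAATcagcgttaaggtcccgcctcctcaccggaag

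They lie at chr14:54617996-54618095 (minus strand), chr11:70525257-70525356 (plus strand), chr7:28050093-28050192 (minus strand) and chr11:101095436-101095535 (minus strand). In GENCODE M21 the last 27 bases for *Psmb5*, the last 9 for *Psmc4* and the last base for *Psmc3ip* fall in the first exon of the gene, and the remainder is upstream of it. TGACNNNGC stands at -47 to -39 in *Psmb5* and at -9 to -1 in *Psmb6*, the box CCAAT at -36 to -32 in *Psmc3ip*, and neither is in the window of *Psmc4*. A promoter reaching from 250 bases before to 50 after the start site was found for 40 of the 48 genes. On either strand, TGACNNNGC was in 6 of the 40, against 12.4% of 32851 promoters, and CCAAT in 14, against 37.4%. Besides *Psmb5* and *Psmb6*, TGACNNNGC was in *Psmc6*, *Psmd9*, *Psmd12* and *Psme4*, whose values overlapped between the runs. The core of the interferon-stimulated response element was in 5 (3.4% of all promoters), *Psmb3*, *Psmd4*, *Psmd9*, *Psme1* and *Psmg4*. It was not found in *Psmb8*, *Psmb10* or *Psme2*. The STAT palindrome TTCNNNGAA was in 3 (8.3% of all promoters), *Psmb8*, *Psmd2* and *Psmg1*. No match of one of these motifs overlapped a match of another in the 40 promoters.

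Of the 31 standing subunits of the rings, base and lid, 24 were highest in Hsp47-deleted replicate 3, 6 in control replicate 4 and 1, *Psmd8*, in Hsp47-deleted replicate 2. Hsp47-deleted replicate 3 had the highest value of the 6 libraries for 26 of the 47 genes (55.3%, against 23.5% of all genes), and of the 4 libraries of the second run for 33 (70.2%, against 34.3%). It lay above the mean of Hsp47-deleted replicates 1 and 2, from the same run and label, for 35 of the 47 genes (74.5%, against 45.3% of all genes), with a median difference of 0.51 over the 47 and -0.076 over all genes. By role, it was above for 7 of 7 α subunits, 7 of 7 standing β subunits, 6 of 6 ATPases, 3 of 3 base non-ATPases and 7 of 8 lid subunits. That is 30 of the 31, with a median difference of 0.62, *Psmd8* being the exception. The largest were *Psmd11* (1.26), *Psmb2* (1.15), *Psma5* (1.03) and *Psma3* (1.03). Over all genes tested this library also stood apart from its group. It correlated at 0.899 and 0.92 with Hsp47-deleted replicates 1 and 2 (Pearson r), which correlated at 0.952 with each other. With control replicates 3 and 4 it correlated at 0.869 and 0.841, against 0.826 and 0.766 for replicate 1 and 0.844 and 0.792 for replicate 2.

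Among the other genes matched by the rule, *Psmc3ip* included, the direction was mixed. Hsp47-deleted replicate 3 was above the mean of replicates 1 and 2 for 5 of the remaining 16, with a median difference of -0.26. By role this was 0 of 2 inducible subunits, 0 of 3 chaperones of the regulatory particle and 2 of 5 activators and inhibitor. It was also 2 of 4 core assembly chaperones (median 0.085), the 1 tissue-restricted gene tested (0.19) and not *Psmc3ip* (-0.57). The exception with the largest value was *Psme3*, at 1.30. The split by role was seen in these values and is a description with no test. Leaving this library out, 4 of the 47 genes were higher at an unadjusted limma p under 0.05 (12.1% of all genes) and 0 lower (0.596%). The median group difference was then 0.23 against 0.359 for all genes. Hsp47-deleted replicates 1 and 2 were both above control replicate 2 for 26 of the 47 (55.3%, against 62.3% of all genes). The higher median of the proteasome genes over all genes was thus not seen without Hsp47-deleted replicate 3.

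**Figure D4:**
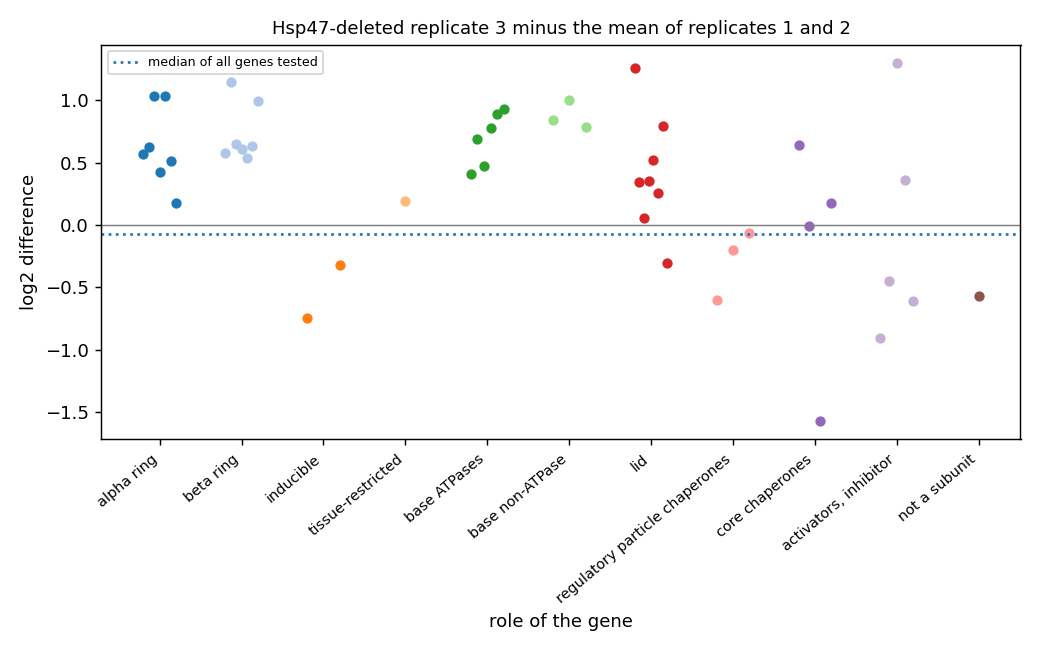
Log2 difference between Hsp47-deleted replicate 3 and the mean of Hsp47-deleted replicates 1 and 2, for the 47 genes tested, by role; each point is a gene and the dotted line the median of all genes tested (-0.076). Of the points of the α ring, the β ring, the ATPases, the base and the lid, 30 of 31 lie above 0, while the inducible subunits and regulatory particle chaperones lie below it.

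As shares of each library, the 48 genes took 0.343%, 0.473% and 0.261% of the summed linear values in the controls and 0.293%, 0.276% and 0.396% in the libraries labelled Hsp47-deleted. The share was largest in control replicate 4, where *Psma7*, *Psmb4*, *Psma3* and *Psmd13* reached their highest values, and it overlapped between the groups. The median log2 value of the 47 genes was 5.00, 5.24 and 5.35 in controls and 5.52, 5.43 and 6.09 in the others. Over all genes tested the medians were 2.75, 3.00 and 3.13 and 3.40, 3.43 and 3.28, so that Hsp47-deleted replicate 3 was not the highest there.

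The 5 genes that were lower in every library of the second run, *Psma3*, *Psma7*, *Psmb4*, *Psmd13* and *Psme1*, had a median of 9 annotated transcripts in GENCODE M21, from 5 to 13. The 21 that were higher had a median of 4, from 2 to 10, and the 21 whose runs overlapped a median of 5, from 2 to 15. Median GC contents were 52.2%, 51.0% and 48.7%, and median lengths of the longest coding transcript 1183, 1311 and 1785 bases. The ranges of all 3 groups overlapped. This is a description of genes chosen by their values, and the part of annotation in the difference between the runs was not tested.

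**Figure D5:**
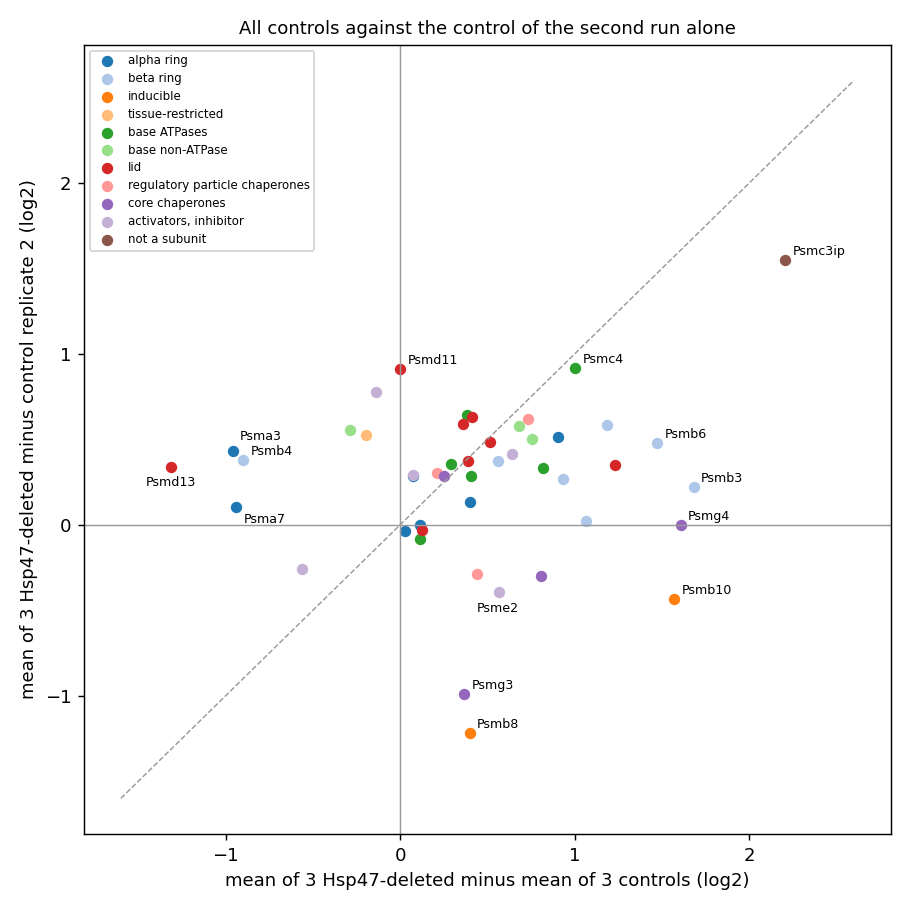
Group difference over all 6 libraries (horizontal, log2) against the difference of the libraries labelled Hsp47-deleted from control replicate 2 alone (vertical, log2) for the 47 genes tested, coloured by role. Both use the same 3 libraries labelled Hsp47-deleted and share control replicate 2; the dashed line marks equal values, *Psmc4* lies near it, *Psmb8* and *Psmb10* lie below 0 on the vertical axis, and *Psmd13*, *Psma3*, *Psmb4* and *Psma7* lie left of 0 on the horizontal one.

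Of 36 genes that supply or work with the proteasome (ubiquitin genes, conjugating and deubiquitinating enzymes, shuttle factors and regulators of proteasome transcription), 35 were tested. At a BH-adjusted limma p under 0.05, 0 differed, and at an unadjusted p under 0.05, 8 were higher and 0 lower, against 0.245% of all genes for the adjusted test and 14.5% for the higher direction. Their median difference was 0.46, beside 0.355 over all genes, and 0.50 against control replicate 2, beside 0.29. *Bag6*, a chaperone that hands misplaced proteins to the proteasome, had groups that did not overlap, with 5.28 as the lowest and 6.10 as the highest control, below 6.95, 6.77 and 7.03 in the other group (difference 1.12, limma, BH-adjusted p = 0.274), with 0.92 against control replicate 2. The polyubiquitin gene *Ubb* followed the run instead, at 5.84 and 5.61 in control replicates 3 and 4, 9.37 in control replicate 2 and 9.83, 9.80 and 10.45 in the others (difference 3.09, limma, BH-adjusted p = 0.281, and 0.65 against control replicate 2). *Ubb* and *Stub1*, which encodes a ubiquitin ligase, were among the genes with a BH-adjusted p under 0.05 for the run term in limma. Hsp47-deleted replicate 3 lay above the mean of replicates 1 and 2 for 30 of the 35 (85.7%), with a median of 0.63.

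The transcription factor genes *Nfe2l1* and *Nfe2l2* both overlapped between the groups. *Nfe2l1* was at 7.33, 7.66 and 6.52 in controls and 6.99, 7.50 and 7.87 in the others, and *Nfe2l2* at 8.75, 9.05 and 7.03 and at 7.03, 7.37 and 8.91. Both were highest in Hsp47-deleted replicate 3 among the libraries of the second run, but over all libraries *Nfe2l2* was highest in control replicate 4. *Sqstm1*, an autophagy receptor that binds ubiquitin, stood at 10.69 in Hsp47-deleted replicate 3. It was at 8.18, 8.54 and 8.96 in the other libraries of the second run, and at 9.20 and 9.37 in control replicates 3 and 4.

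The 12 genes of class I antigen processing had a median difference of 0.50, beside 0.355 over all genes, and of -0.052 against control replicate 2, beside 0.29. Of these, 0 passed a BH-adjusted limma p under 0.05 (0.245% of all genes), and 3 were higher at an unadjusted p under 0.05 (14.5%). *H2-D1*, which encodes a class I heavy chain, was at 6.93, 6.79 and 7.94 in controls and at 8.84, 8.81 and 8.69 in the others (difference 1.56, limma, BH-adjusted p = 0.214), and *Calr*, a chaperone of class I loading, differed by 0.86. *B2m* went the other way, at 12.17, 12.03 and 11.80 in controls and at 11.35, 11.35 and 11.32 in the others. Its difference was -0.66 (limma, BH-adjusted p = 0.365), and -0.46 against control replicate 2. Of the 12, the groups did not overlap for 3 that were higher (18.3% of all genes) and 1, *B2m*, that was lower (1.50%). *Irf1*, the transcription factor that drives the inducible subunits, was at 3.63 and 2.90 in control replicates 3 and 4, at 6.03 in control replicate 2 and at 6.67, 6.36 and 4.90 in the others. Hsp47-deleted replicate 3 was the lowest library of the second run for *Irf1*, *Tapbp* and *Tap1*, and lay above the mean of replicates 1 and 2 for only 3 of the 12 genes (median -0.33).

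Without control replicate 2, the label and the run coincide. In that fit 13 of the 47 genes had a BH-adjusted limma p under 0.05 (27.7%, against 18.3% of all genes), 10 of them higher (16.4% of all genes) and 3 lower (1.87%). The largest of the 10 were *Psmb10* (2.58), *Psmc3ip* (2.54), *Psmb3* (2.42) and *Psmg4* (2.41), and the 3 were *Psmd13* (-2.14), *Psma3* (-1.65) and *Psmb4* (-1.54). Against control replicate 2, 7 of the 13 had a difference of the opposite sign, among them *Psmg4* at only -0.0009. The same share over all genes was not counted, so nothing particular to the proteasome genes is drawn from it.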

How the data were processed

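RNA-seq was analysed in 3 control libraries and 3 labelled Hsp47-deleted. RNA was amplified before tagmentation libraries were made. The authors deposited log2(value + 1) for 28987 genes without naming the linear unit, together with group means and their own comparison, which were not used. The submitters' processing notes name kallisto and mm10, and the paper AltAnalyze. Undoing the log2 gives fractional values and no read counts, so that depth and counting intervals cannot be given.

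No further scaling was applied to the log2 values, which carry a pseudocount of 1. Genes with a mean linear value of at least 1 over the 6 libraries (15109) were compared with lmFit and trended eBayes (limma 3.58.1, R 4.3.3) without a covariate. Benjamini-Hochberg adjustment of the p-values ran over all of them. Fold changes on this scale understate the change of low genes. Nothing in the labels says that libraries were separate animals, so p-values measure only the spread between these libraries.

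The genes, role groups and lists were chosen with earlier results of these data known. The text names the 2 genes with the smallest p in each role group and list, the catalytic and inducible subunits, the genes with the 3 highest and 3 lowest mean values and the gene left out by the filter. Others were named after their values were seen, and some genes of the lists are not reported here by name. Positions come from GENCODE M21 (GRCm38), in which all 48 genes were matched by identifier, and promoters from RefSeq (GRCm38.p6). A near-identical copy had a transcript aligned by minimap2 2.31-r1302 to the longest coding transcript of the gene at 95% identity or more. The alignment had to cover at least 80% of the length of either transcript.

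Alternatives were sequencing run as a covariate, the second run alone, a block for the replicate number, a minimum mean of 5 or none, a pseudocount of 0.1 or 5, centring on the median, quantile normalization, no trend, and leaving out each library. Run together with centring was added after the data were seen. Control and Hsp47-deleted libraries share replicate numbers 2 and 3, and nothing says that these mark a pair.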

Additional observations from a re-analysis of the deposited data

How the results depend on the processing

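The count of proteasome genes at a BH-adjusted limma p under 0.05 was 0 under every alternative except without control replicate 2, where it was 13 and where run and label coincide. At an unadjusted p under 0.05 the 9 genes became 2 with run as a covariate, 3 with the libraries centred on their medians, 5 with quantile normalization, and 2 with run and centring together. Leaving out 1 library gave from 2 (for control replicate 3 or 4) to 21 (for control replicate 2), and 4 for Hsp47-deleted replicate 3. The median difference of 0.40 became -0.014 on centring, 0.029 with quantile normalization and 0.096 with run and centring, and ranged from 0.23 to 0.53 with 1 library left out. The partner genes at an unadjusted p under 0.05 went from 8 to 0 with run as a covariate, also with centring added, to 3 on centring, to 4 with quantile normalization, and to between 3 and 12 with 1 library left out, with from 0 to 8 adjusted calls. Their median went from 0.46 to -0.042 with quantile normalization, and from 0.12 to 0.62 with 1 library left out. Class I genes went from 3 to 1 with run as a covariate, with or without centring, and to between 1 and 9 with 1 library left out, with from 0 to 4 adjusted calls and a median from 0.29 to 0.91. Their median of 0.50 was 0.086 on centring, 0.11 with quantile normalization and -0.30 with run and centring. In these lists too, adjusted calls appeared only without control replicate 2. The *Psmb8* to *Psmb5* ratio differed by -1.49 with run as a covariate or in the second run alone, and by -0.86 to -0.058 with 1 library left out, and the *Psmb10* to *Psmb7* ratio by -0.81 and by 0.44 to 1.92. The cause of these shifts was not tested.

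The sign of the difference turned for 18 of the 47 genes with run as a covariate, 18 on centring, 12 with quantile normalization, 20 with run and centring and 6 with the replicate block. The same shares over all genes were not counted. The values that follow are for the genes picked by the naming rule. With run as a covariate, which here equals the second run alone, the sign turned for *Psma3* (0.43), *Psma7* (0.11), *Psmb4* (0.38), *Psmb11* (0.52), *Psmb8* (-1.22), *Psmb10* (-0.44), *Psmd10* (-0.29), *Psme2* (-0.40), *Psmg2* (-0.30), *Psmg3* (-0.99) and *Psmg4* (-0.0009). With centring added the values were 0.19 for *Psma3*, 0.13 for *Psmb4*, 0.28 for *Psmb11*, -1.46 for *Psmb8*, -0.68 for *Psmb10*, -0.53 for *Psmd10*, -0.64 for *Psme2*, -0.55 for *Psmg2*, -1.24 for *Psmg3*, -0.25 for *Psmg4* and -0.026 for *Psmb3*, while *Psma7* (-0.14) had the sign it has over all libraries. Of the same genes, centring alone turned *Psmb8* (-0.015) and *Psmg3* (-0.046), and quantile normalization turned *Psmb8* (-0.068). With 1 library left out, *Psmb11* ranged from -0.55 to 0.22, *Psmb8* from -0.055 to 1.21 and *Psmg3* from -0.13 to 1.05. The values for *Psmg3* are differences on the log2(value + 1) scale between libraries of which 3 are listed at 0, and no fold. Unknown depth limits the lowest genes, *Psmg3*, *Psmd8* and *Psmb11*.

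The replicate block, on numbers 2 and 3, gave 0 adjusted calls and 3 proteasome genes, 4 partner genes and 1 class I gene at an unadjusted p under 0.05, and turned *Psmb8* (-0.16), *Psmb11* (0.34) and *Psmg3* (-0.47). Deviations from the group means correlated at 0.16 and 0.23 between same-numbered libraries, over genes. With 2 shared numbers this does not make them pairs.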
